A study of Mus musculus with 22 samples.

Results

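The earliest growth hormone (GH) response of male liver was read from 2 of the 22 arrays of the study, chosen by their labels. On each, liver RNA from hypophysectomised (Hypox) males killed 30 min after 1 GH injection was hybridised against liver RNA from Hypox males without GH. The GH group (M-Hypox+GH30) was a pool of 4 mice on replicate 1 and of 3 mice on replicate 2, and the control group (M-Hypox) was a pool of 3 mice on each. All mice were of the ICR strain, aged 8 weeks, and all lacked the pituitary, the controls too, so both sides also lacked its other hormones. The dyes were swapped between the replicates. Of the 11 comparisons in the series, 3 are read beside it, each over Hypox mice of the same sex on 2 arrays. They are GH for 30 min in Hypox females (F-Hypox+GH30), GH for 90 min in males (M-Hypox+GH90) and 2 GH injections in males (M-Hypox+2GH). The mice given 2 injections were killed 30 min after the last. Values are also taken from GH-treated males over GH-treated females at 30 min, from Hypox males over Hypox females, and from Hypox over sham-operated mice, which keep the pituitary and received vehicle, in males (M-Sham) and females (F-Sham). The 3 male comparisons share the male Hypox group, and the female one shares no mice with them. Values below are log2 ratios of the GH pool over the Hypox pool unless another quantity is named, and ± is the standard error from 1 limma fit to all 22 arrays. The labels do not say that the replicates were separate pools of separate mice, so p-values measure only the spread between these arrays.

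GH is released by the pituitary in pulses in male rodents. It binds its receptor Ghr on hepatocytes, which activates the kinase Jak2 and, through it, the transcription factors Stat5a and Stat5b. These enter the nucleus and induce brakes on the receptor, the proteins Cish and Socs2, as well as later targets such as Igf1, the growth factor that liver secretes into blood.

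The replicates were alike for a small share of genes. Across 26207 genes tested, Pearson's r between the replicates was 0.168 and 54.6% of genes went the same way on both (genes are not independent replicates). A gene was called where limma gave an adjusted p under 0.05 and the ratios of both replicates had the same sign. By this rule 467 genes were higher after GH (1.78% of those tested) and 189 lower (0.721%), while 4805 genes had an unadjusted p under 0.05. Counts of called list members given below are to be read beside these shares. With the 2 arrays fitted alone, the number called was 0 in both directions. Without replicate 1 it was 140 higher and 7 lower, and without replicate 2 it was 9 higher and 4 lower.

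Signals of other tissues were high in some pools but not in others. On replicate 1 the 31 skeletal muscle genes tested had a median log2 ratio of 2.91 (range 0.91 to 4.95), and on replicate 2 a median of -0.04 (range -0.34 to 0.19). Their summed normalised signal was 198000 and 4260 in the GH pools of replicates 1 and 2, against 16600 and 4490 in the Hypox pools. The pattern shows in the myosin gene Myh4 (4.45 and -0.14), in Ttn, which encodes the giant sarcomere protein titin (4.89 and -0.10), and in Sln, a regulator of the muscle calcium pump (4.95 and -0.08). None of the 31 was called. In GH-treated males over GH-treated females the sum was 189000 in the male pool of replicate 1 and 4660 in that of replicate 2, against 17100 and 4740 in the female pools. Male comparisons read beside this one carried such signals too. At 90 min the muscle sum was 32200 and 4610 in the GH pools, against 6150 and 4550 in the Hypox pools. After 2 injections it was 4790 and 78000, against 4590 and 8990. In sham males it was 25800 and 81200, against 6050 and 10100 in Hypox males. The sum of 16 exocrine pancreas genes was 2140 and 85400 after 2 injections, against 1700 and 6660.

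**Figure D1:**
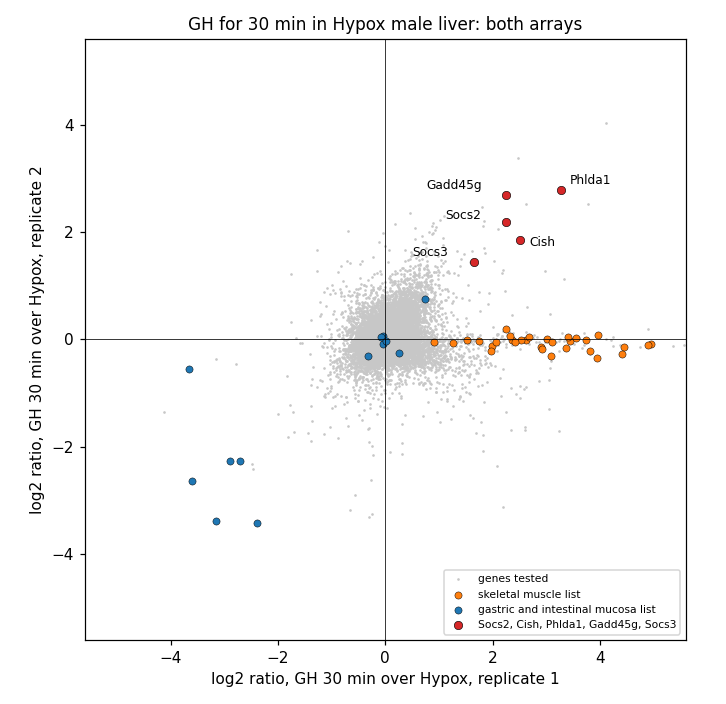
Log2 ratio of GH for 30 min over Hypox in male liver for each gene tested, replicate 1 on the horizontal axis and replicate 2 on the vertical axis (1 gene lies outside the plotted range). Skeletal muscle genes lie along the horizontal axis, at 0.91 to 4.95 on replicate 1 and near 0 on replicate 2. Phlda1, Gadd45g, Socs2, Cish and Socs3 are high on both arrays. The gastric and intestinal mucosa genes are spread: Chil4, Spink4 and Tff2 are low on both arrays, Vil1 is above 0 on both, and others lie near 0.

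The other signal lay in the Hypox pools. The summed normalised signal of 13 gastric and intestinal mucosa genes was 1710 and 3000 in the GH pools of replicates 1 and 2, against 8040 and 8500 in the Hypox pools. Male Hypox RNA was used on 8 other channels of the series. There the sum was 8210 on replicate 1 of Hypox over sham males and 8580 on replicate 1 of Hypox males over Hypox females, but 1430 to 1530 on the other 6 channels. The labels do not say which mice went into which of these pools. In pooled tissue, fewer cells of a type and less RNA per cell cannot be told apart.

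**Figure D2:**
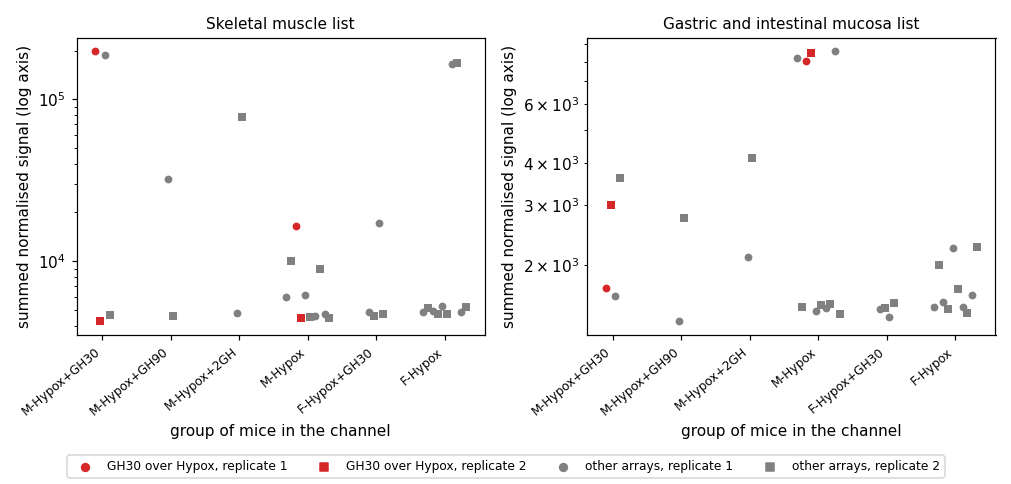
Summed normalised signal (log axis) of 31 skeletal muscle genes and 13 gastric and intestinal mucosa genes in each channel, by the group of mice in that channel. Each point is 1 channel of 1 array. Muscle signal is high in the GH pool of replicate 1 (198000), and mucosa signal is high in the Hypox pools of both replicates (8040 and 8500).

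The tissue was liver by its markers. All 12 hepatocyte genes tested, Alb and Ttr among them, were well above background in both pools on both arrays. Their median log2 ratio was -0.34 on replicate 1, with the GH pool in the green channel, and 0.48 on replicate 2, with the GH pool in the red channel. In females at 30 min the medians were -0.30 and 0.44 with the same order of dyes.

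The brakes on GH signalling were among the highest genes on both arrays. Socs2, which binds the activated GH receptor and limits its signal, had a normalised signal of 4250 and 4440 in the GH pools of replicates 1 and 2, against 890 and 976 in the Hypox pools. The arrays gave nearly the same ratio, 2.26 and 2.19, and Socs2 rose 4.66-fold (2.22 ± 0.39, adjusted p = 0.020). Cish, which competes with STAT5 for the receptor, had 2880 and 1770 in the GH pools, against 502 and 489 in the Hypox pools. Its ratios of 2.52 and 1.85 were both far above 0, but it did not pass the threshold (2.19 ± 0.68, adjusted p = 0.10). It passed in 2 of 16 alternative fits, among them the fit without the arrays of sham-operated mice (adjusted p = 0.0025).

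Socs3, an inhibitor of cytokine receptors of the same family, had 11100 and 10500 in the GH pools, against 3520 and 3860 in the Hypox pools. The GH pools were higher on both arrays, at 1.65 and 1.44, without passing (adjusted p = 0.21). Socs1 was uneven, at 1.53 on replicate 1 and 0.31 on replicate 2 (adjusted p = 0.31). Of the 16 inhibitors of GH signalling tested, 1 was called higher (Socs2) and none lower, and their median was 0.11 beside 0.0092 over all genes tested. The tyrosine phosphatase gene Ptpn1 was at 0.94 and 0.37. Socs4 to Socs7, the phosphatase genes Ptpn2, Ptpn6 and Ptpn11 and the 4 PIAS genes, which encode inhibitors of STAT proteins, lay between -0.30 and 0.49 on either array. In females at 30 min Socs2 was at 3.23 and 2.70 (called higher), Cish at 2.95 and 2.80 and Socs3 at 1.53 and 1.82 (neither called).

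**Figure D3:**
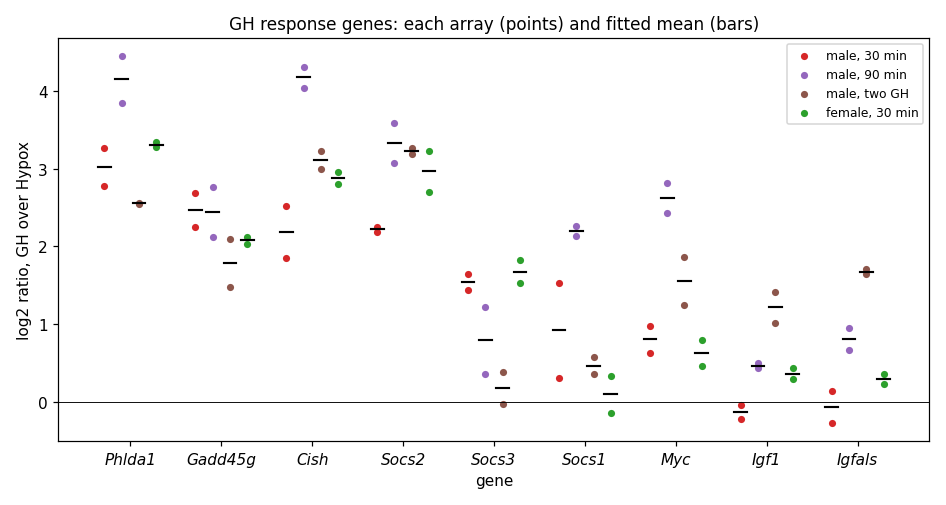
Log2 ratio of GH over Hypox for GH response genes in males at 30 min, at 90 min and after 2 GH injections, and in females at 30 min. Points are single arrays and bars the means. Phlda1, Gadd45g, Cish, Socs2 and Socs3 were above 1.4 on both arrays at 30 min in males, whereas Igf1 and Igfals lay near 0 at that time and were at 1.22 and 1.68 after 2 injections.

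Promoters are shown for genes that differed in timing: Cish, Socs3 and Gadd45g, which were high on both arrays at 30 min, and Igfals, which was not. The sequences are from RefSeq on build GRCm38.p6 and run from 250 bases before the gene's start to 50 bases after it, 5′ to 3′ on the gene's strand. Capitals mark TTCNNNGAA, the palindrome that STAT5 dimers are known to bind, which reads the same on both strands. Cish lies at chr9:107296409-107296708 (plus strand), Socs3 at chr11:117969317-117969616 (minus strand) and Gadd45g at chr13:51846425-51846724 (plus strand). The window of Igfals, the second of 3 listed for that gene, lies at chr17:24877981-24878280 (plus strand).
Cish: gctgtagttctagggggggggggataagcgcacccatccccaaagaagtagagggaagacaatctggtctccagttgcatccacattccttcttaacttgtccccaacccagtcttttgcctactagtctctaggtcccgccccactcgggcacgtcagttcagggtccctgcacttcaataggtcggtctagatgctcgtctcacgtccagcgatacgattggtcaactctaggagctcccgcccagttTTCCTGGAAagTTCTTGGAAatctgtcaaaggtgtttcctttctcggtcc
Socs3: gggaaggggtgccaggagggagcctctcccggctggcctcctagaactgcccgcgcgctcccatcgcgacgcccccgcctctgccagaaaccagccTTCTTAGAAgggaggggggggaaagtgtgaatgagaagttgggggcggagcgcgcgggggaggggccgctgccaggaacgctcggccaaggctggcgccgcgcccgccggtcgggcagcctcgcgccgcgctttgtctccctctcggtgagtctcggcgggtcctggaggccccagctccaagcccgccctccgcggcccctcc
Gadd45g: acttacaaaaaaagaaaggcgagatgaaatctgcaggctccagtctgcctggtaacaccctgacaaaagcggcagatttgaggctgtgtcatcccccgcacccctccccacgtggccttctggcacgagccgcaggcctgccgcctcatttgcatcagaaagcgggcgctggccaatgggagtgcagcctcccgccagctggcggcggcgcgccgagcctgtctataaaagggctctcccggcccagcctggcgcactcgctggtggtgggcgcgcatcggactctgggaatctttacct
Igfals: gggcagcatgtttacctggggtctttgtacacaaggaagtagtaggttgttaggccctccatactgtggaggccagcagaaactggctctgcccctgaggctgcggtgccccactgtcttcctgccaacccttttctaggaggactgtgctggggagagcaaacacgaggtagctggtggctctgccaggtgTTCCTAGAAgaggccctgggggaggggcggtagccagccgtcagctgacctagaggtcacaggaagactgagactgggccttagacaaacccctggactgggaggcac
The Cish window holds these letters 2 times, from bases 1 and 12 after the start. The Socs3 window holds them once, from base -154, and the Igfals window shown once, from base -58. That window was chosen because its match lies nearest the start; the first Igfals window holds 1 match, from base -236, and the third none. Gadd45g has no match in its window. A match is held by 8.3% of the 32851 promoters in the RefSeq set, and by 13 of the 62 promoters found for named genes, whose makeup is mixed. Of called genes these are Phf8, which rose, and Chil4, Gm4788 and Utp14b, which fell, and the rest are of genes not called at 30 min, such as Bcl6 and Tgm1. Of the 12 largest rises, Gadd45g, Padi4, Synm, Lars2, Resf1 and Ckap4 have a promoter in the set, and none holds a match. A match describes letters and is not a binding site.

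Phlda1 and Gadd45g had the largest rises of the called genes with a symbol. Phlda1, an immediate-early gene with a pleckstrin homology-like domain, had a normalised signal of 48000 and 36700 in the GH pools, against 4990 and 5360 in the Hypox pools. It rose 8.12-fold (arrays 3.27 and 2.78, mean 3.02 ± 0.50, adjusted p = 0.017). Gadd45g, a stress sensor that acts on MAP kinase signalling and the cell cycle, had 13100 and 19900 in the GH pools, against 2760 and 3090 in the Hypox pools. It rose 5.54-fold (arrays 2.25 and 2.69, mean 2.47 ± 0.59, adjusted p = 0.047). Both genes are named as called rises, so the gap between their GH and Hypox pools follows from that choice. They were the 2 genes called among 31 early response genes, whose median was 0.05. Their relatives were not called: Phlda2 was at 0.36 and 0.03, Phlda3 at -0.31 and -0.90, Gadd45a at -0.11 and -0.01 and Gadd45b at -0.03 and 0.13. The kinase gene Pim1, a STAT5 target in blood cells, was at 1.01 and 0.43 (adjusted p = 0.21).

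No classical immediate-early transcription factor was called. Among 25 tested the median was 0.11, with medians of -0.03 and 0.21 on the replicates. Myc, a driver of growth, was at 0.98 and 0.63 (adjusted p = 0.48). The AP-1 genes Fos (0.31 and 0.64), Jun (-0.56 and 0.24) and Junb (0.08 and 0.26) did not pass either. Members that went opposite ways on the replicates included the nuclear receptor gene Nr4a1 (-1.22 and 0.44) and Klf5 (-1.22 and 0.70). Of 15 genes for MAP kinase phosphatases and Sprouty proteins, which damp growth factor signals, none was called (median 0.10).

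Of 24 receptors, kinases and STATs, none was called higher and 1 lower, Lifr, the receptor of leukaemia inhibitory factor. Lifr had 4080 and 4030 in the GH pools, against 4830 and 5610 in the Hypox pools, and fell by 0.36 ± 0.07 on the log2 scale (adjusted p = 0.031). Its other 3 probes lay between -0.07 and 0.14. Ghr was at 0.04 and 0.36 (adjusted p = 0.24), Jak2 at 0.42 and -0.16, Stat5a at 0.13 on both arrays and Stat5b at -0.15 and 0.31. Stat3, which several cytokine receptors activate, was at 0.84 and 0.95 (0.89 ± 0.22, adjusted p = 0.055). Both arrays were alike for Stat3, which just missed the threshold.

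Later GH targets were not called at 30 min. Igf1 had 23600 and 23500 in the GH pools, against 24100 and 27300 in the Hypox pools (-0.12 ± 0.16, adjusted p = 0.77). Igfals, which holds circulating IGF1 in a stable complex, was at -0.26 and 0.14 (adjusted p = 0.82). At 90 min, where 3.4% of genes were called higher and 1.58% lower, and after 2 injections, where 10.6% were called higher and 8.7% lower, Igfals was at 0.81 and 1.68 (both called), and Igf1 at 0.47 (not called) and 1.22 (called). Of 13 IGF axis genes none was called at 30 min (median 0.06). Igfbp1, an IGF-binding protein gene known to follow insulin and fasting, went opposite ways at -1.27 and 1.66. Bcl6, a male-biased repressor of STAT5 targets, was at -0.24 and -0.14 at 30 min and at -1.76 after 2 injections (called lower). The female-biased repressor gene Cux2 was at 0.03 and -0.23.

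Of 15 histone demethylase genes 2 were called higher and none lower, beside 1.78% and 0.721% of all genes tested. Kdm6b, which removes a repressive methyl mark from histone H3, had 194 and 369 in the GH pools, against 114 and 113 in the Hypox pools (1.23 ± 0.22, adjusted p = 0.021). Phf8 was dim, with 89.9 and 100 in the GH pools, against 75.6 and 78 in the Hypox pools. It was at 0.25 and 0.36 (0.31 ± 0.05, adjusted p = 0.018). Of 34 liver transcription factors 1 was called higher and none lower: Ppara, a nuclear receptor that drives fatty acid oxidation, with 1940 and 3370 in the GH pools, against 1320 and 1310 in the Hypox pools (0.96 ± 0.21, adjusted p = 0.037). Both Kdm6b (0.76 and 1.71) and Ppara (0.56 and 1.36) were higher on replicate 2. Without replicate 2 Ppara was at 0.50. It did not pass when the arrays of sham-operated mice were left out of the fit (adjusted p = 0.054).

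None of the genes in the next 7 lists was called. All 15 lipogenic genes had a mean ratio below 0 (median -0.34, range -0.67 to -0.01), and none passed the test. Fasn, the fatty acid synthase gene, was at -0.56 and -0.48, the desaturase gene Scd1 at -0.85 and -0.41 and the elongase gene Elovl6 at -0.58 and -0.76. In females at 30 min the list's median was -0.26. The 19 cholesterol synthesis genes had a median of -0.20. Medians were 0.02 for 15 genes of glucose output and insulin response, -0.25 for 11 glucocorticoid-induced genes, 0.02 for 18 clock genes, 0.0086 for 15 genes of stress in the endoplasmic reticulum and 0.15 for 11 heat shock chaperones.

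Inflammatory genes split by replicate, and none was called. The 23 NF-kappaB and chemokine genes had medians of 0.74 on replicate 1 and -0.25 on replicate 2, with Cxcl10 at 2.60 and -1.70 and Ccl5 at 2.34 and -0.91. The 24 acute phase genes had medians of 0.32 and -0.27, with Lcn2 at 1.78 and -1.55 and Saa1 at 1.63 and -1.46. Markers of Kupffer cells and macrophages had medians of 0.62 and -0.20 over 11 genes, adipocyte markers 0.59 and -0.09 over 7, and markers of stellate cells and fibroblasts 0.60 and -0.18 over 9. Their part in the split was not tested.

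Among genes that differ between male and female liver, Cyp4a12a, a male-specific fatty acid hydroxylase, was the 1 called of 14 male-biased genes. It had 38100 and 53800 in the GH pools, against 22200 and 20900 in the Hypox pools, and rose 2.10-fold (1.07 ± 0.25, adjusted p = 0.047). A second Cyp4a12a probe was at 0.05 and 0.79. The urinary protein gene Mup1 (-0.77 and -0.65) and the steroid dehydrogenase gene Hsd3b5 (-0.26 and -0.13) were not called. Of 23 female-biased genes 1 was called, Lifr, described above. Over all genes tested 1.78% were called higher and 0.721% lower. Cyp2f2 (-0.11 and 1.82) and Cyp3a41a (-0.15 and 1.24) were high on replicate 2 alone.

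The remaining large rises had mixed functions. Padi4, which converts arginine to citrulline in histones and other proteins, had 407 and 668 in the GH pools, against 114 and 144 in the Hypox pools (2.03 ± 0.48, adjusted p = 0.047). It was at -0.13 and 0.05 in females at 30 min, and a second probe was at 0.27 and 0.63 in males. In males Padi4 was uneven at 90 min, at 0.09 and 2.26, and was called lower after 2 injections, at -1.44 and -1.76 (adjusted p = 0.034). Synm, an intermediate filament protein gene of muscle, had 811 and 463 in the GH pools, against 179 and 196 in the Hypox pools (1.71 ± 0.18, adjusted p = 0.0044). Synm was at 2.18 and 1.24, and its second probe at 1.12 and 0.32. Both probes were higher on replicate 1, where the muscle list was high, whereas that list was not raised on replicate 2. Without replicate 1 Synm was at 1.31. The part of muscle RNA in its ratios was not tested. Resf1, a regulator of retroelement silencing, was at 1.29 and 1.23 (adjusted p = 0.0068), and its other 2 probes lay between 0.79 and 1.41. Resf1 was also called at 90 min, at 1.08.

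Lars2, the mitochondrial leucyl-tRNA synthetase gene, had 22000 and 30200 in the GH pools, against 10500 and 8120 in the Hypox pools (1.48 ± 0.28, adjusted p = 0.027). At 90 min Lars2 was called lower, at -1.14. Reep3, which shapes the endoplasmic reticulum, was at 0.98 and 1.56 (adjusted p = 0.028), but its second probe was at -0.05 and -0.16. The water channel gene Aqp4 was at 0.96 and 1.36 (adjusted p = 0.012), with its other 2 probes between 0.40 and 0.65. After 2 injections Aqp4 was called lower, at -0.58 (adjusted p = 0.025). Ckap4, a membrane protein gene of the endoplasmic reticulum, was at 1.26 and 0.86 (adjusted p = 0.016), and at -0.38 and -1.08 in females at 30 min.

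**Figure D4:**
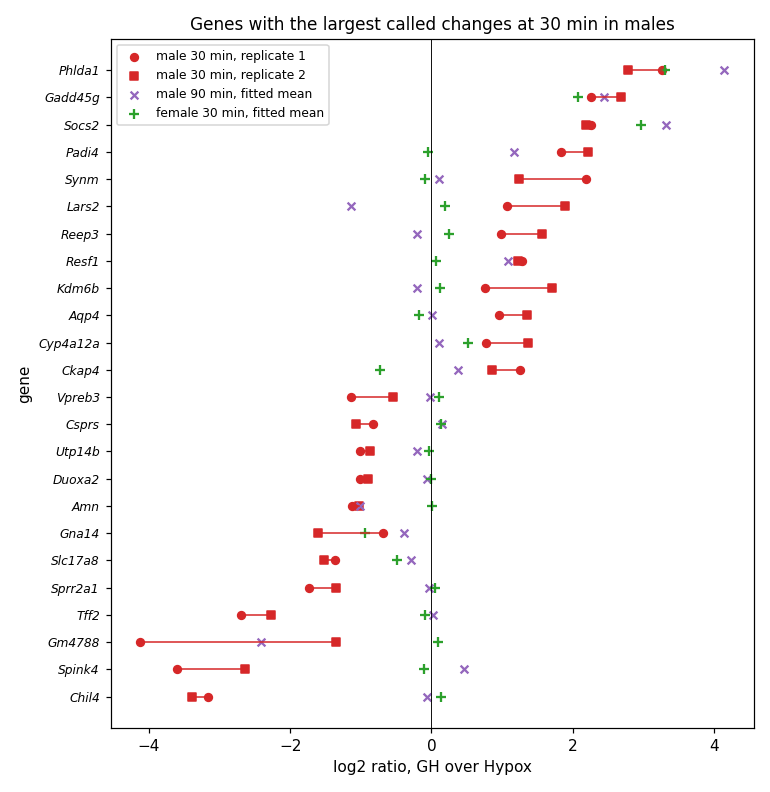
Log2 ratio of GH over Hypox for the 12 largest called rises and 12 largest called falls among genes with a symbol in males at 30 min, with single arrays and, for comparison, the means at 90 min in males and at 30 min in females. Phlda1, Gadd45g and Socs2 were high in all 3 comparisons, whereas the other 9 rises lay between -0.73 and 0.51 in females, and Chil4, Spink4 and Tff2 lay near 0 there.

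Genes of mucous surfaces led the falls. Chil4, a chitinase-like protein of stomach and lung, had 129 and 115 in the GH pools, against 1150 and 1200 in the Hypox pools (-3.27 ± 0.70, adjusted p = 0.033). Spink4, a protease inhibitor of goblet cells, had 122 and 263 in the GH pools, against 1480 and 1630 in the Hypox pools (-3.12 ± 0.74, adjusted p = 0.048). Tff2, a trefoil peptide of gastric mucus, had 141 and 189 in the GH pools, against 914 and 912 in the Hypox pools (-2.48 ± 0.58, adjusted p = 0.043). For all 3 genes the Hypox signals of both arrays were alike. Chil3 (-2.39 and -3.42, adjusted p = 0.051) and Agr2, which folds mucins (-2.90 and -2.27, adjusted p = 0.055), lay just outside the threshold. Of 13 mucosa genes 3 were called lower and 1 higher, the microvillus gene Vil1 (0.74 and 0.75, adjusted p = 0.044). Over all genes tested 0.721% were called lower and 1.78% higher. The pepsinogen gene Pgc (-0.03 and -0.08), the lectin gene Zg16 (0.01 and -0.02) and Muc1 (-0.03 and 0.07) were near 0, and Dmbt1 was at -3.65 and -0.55.

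Other arrays bear on the side of the difference. On replicate 1 of Hypox males over Hypox females Chil4 was at 3.53, Spink4 at 3.23, Tff2 at 2.40 and Agr2 at 2.81, but on replicate 2 they were at 0.04, -0.61, -0.997 and -0.60. In GH-treated males over GH-treated females Chil4 was at 0.74 and -0.43, Spink4 at 0.08 and 1.13, Tff2 at 0.01 and 0.24 and Agr2 at -0.01 and 0.53. At 90 min, over other channels of male Hypox RNA, Chil4 and Tff2 lay between -0.13 and 0.05, but Spink4 was at -0.02 and 0.93. The summed mucosa signal was raised in some GH pools too: on replicate 2 it was 2750 in the 90 min pool, against 1520 in the Hypox pool, and 3610 in GH-treated males, against 1540 in GH-treated females. Also among the largest falls, Sprr2a1, a gene of squamous epithelium (-1.73 and -1.35, adjusted p = 0.029), and Duoxa2, which matures an oxidase (-1.02 and -0.90, adjusted p = 0.033), had the same split. They were at 1.60 and 0.93 on replicate 1 of Hypox males over Hypox females and at -0.13 and -0.07 on replicate 2.

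Of the other falls, Gm4788 and Amn were also called lower at 90 min. Gm4788, a gene related to complement factor H, had 2650 and 21800 in the GH pools, against 46300 and 55500 in the Hypox pools (-2.74 ± 0.44, adjusted p = 0.016). The Hypox signals were alike and the GH pools were not, with ratios of -4.13 and -1.35, and without replicate 1 it was at -1.34 (adjusted p = 0.099). At 90 min Gm4788 was at -2.58 and -2.26, and in females at 30 min it was at 0.20 and -0.02. After 2 injections in males it was at 0.93 and 0.52 (not called). Amn, a subunit of the vitamin B12 uptake receptor, had 81.9 and 76.4 in the GH pools, against 178 and 155 in the Hypox pools (adjusted p = 0.027). It was at -1.01 at 90 min, and at -0.78 and 0.03 after 2 injections (not called). The G protein gene Gna14 was at -0.69 and -1.61 (adjusted p = 0.033), and at -0.68 and -1.21 in females (not called). Slc17a8, a glutamate transporter gene, was at -1.37 and -1.52 (adjusted p = 0.033), while its second probe was at -0.09 and -0.05. Utp14b (-0.95), Csprs (-0.94) and the B cell gene Vpreb3 (-0.84) completed the 12 largest falls.

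By size alone, with no test, 42 genes were at least 2-fold higher on both arrays (0.16% of those with both values) and 23 at least 2-fold lower (0.0878%). At 1.5-fold the numbers were 296 (1.13%) and 76 (0.29%). On single arrays 462 and 241 genes were at least 2-fold higher and 76 and 109 at least 2-fold lower on replicates 1 and 2. With a symbol there were 14 higher and 16 lower, of which 7 in each direction were called. Of the others, Pigt, which attaches GPI anchors to proteins, had 49500 and 42500 in the GH pools, against 11500 and 10200 in the Hypox pools (adjusted p = 0.12), but its second probe was at -0.06 on both arrays. Ly6a, a surface antigen that interferon induces, was at 2.98 and 1.27, and Pln, a regulator of the calcium pump in heart and slow muscle, at 2.04 and 1.46. Fam171b was at 1.04 and 1.49 and Zfp979 at 1.14 and 1.26.

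The renin genes Ren1 (-1.78 and -1.23, adjusted p = 0.067) and Ren2 (-2.01 and -1.39, adjusted p = 0.055), near-identical copies whose signals may not be separable, were low on both arrays without a call. At 90 min Ren1 was at -0.94 and -1.70. Gdpd3, a phosphodiesterase gene, was at -2.47 and -2.41 (adjusted p = 0.064). Slc15a2, a peptide transporter gene, was at -2.48 and -2.32, and its second probe at -0.23 and 0.10. Crym, which binds thyroid hormone, was at -1.38 and -1.90, and Wfdc18 at -1.44 and -1.74. The level of 2310057J18Rik was not well above background in either GH pool and was at least 2.48-fold lower there.

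Many called genes had no symbol. Of the 467 called higher, 332 had none (71.1%), as had 56.1% of those called lower and 47.4% of all genes tested. The median rise was 0.58, and 59 genes reached 2-fold. The 467 genes had medians of 0.02 and 0.08 on the arrays of females at 30 min. In Hypox over sham males, which share the Hypox group, their medians were -0.27 and -0.20. In Hypox over sham females they were -0.31 and -0.46. The latter arrays share no mice with the male GH over Hypox arrays, but entered the fit behind the calls. On replicate 2 of them 57.1% of red spots were well above background, against 77.5% on replicate 1.

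In females at 30 min limma called 3 genes higher (0.0114% of those tested), Socs2 among them, and 2 lower (0.00763%), with 1981 at an unadjusted p under 0.05. The difference of males minus females was called lower for 1 gene (0.00382%) and higher for 0, with 3070 genes at an unadjusted p under 0.05. That gene is Tmpo, which encodes lamina-associated nuclear proteins. Tmpo was at -0.54 and -0.49 in males and at 0.22 and 0.53 in females (difference -0.89 ± 0.09, adjusted p = 0.0068). Without replicate 2 of the female arrays the adjusted p was 0.14. Tmpo was at 0.03 and -0.09 in GH-treated males over GH-treated females, and at 0.70 and 0.62 in Hypox males over Hypox females. The differences were -0.74 ± 0.55 for Socs2, -0.69 ± 0.96 for Cish, -0.29 ± 0.70 for Phlda1 and 0.39 ± 0.83 for Gadd45g, none of them called, which does not show that the sexes responded alike.

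Arrays that set male against female livers give another route to the same difference. For the 467 genes called higher in males, the median difference of males minus females was 0.52 from the GH over Hypox arrays and 0.05 from the male over female arrays. For the 189 called lower these medians were -0.36 and -0.19. Padi4 (2.07 and 1.96) and Ckap4 (1.78 and 1.64) had nearly the same difference by both routes. Synm (1.80 and 0.98), Aqp4 (1.34 and 0.55), Lars2 (1.29 and 0.34) and Kdm6b (1.11 and 0.26) had a smaller one by the male over female arrays. The routes use the same groups of mice, and no test was made between them. All these genes were chosen by their values on the male GH over Hypox arrays. That choice enlarges the difference by the first route, so the medians of the routes are not on an equal footing.

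**Figure D5:**
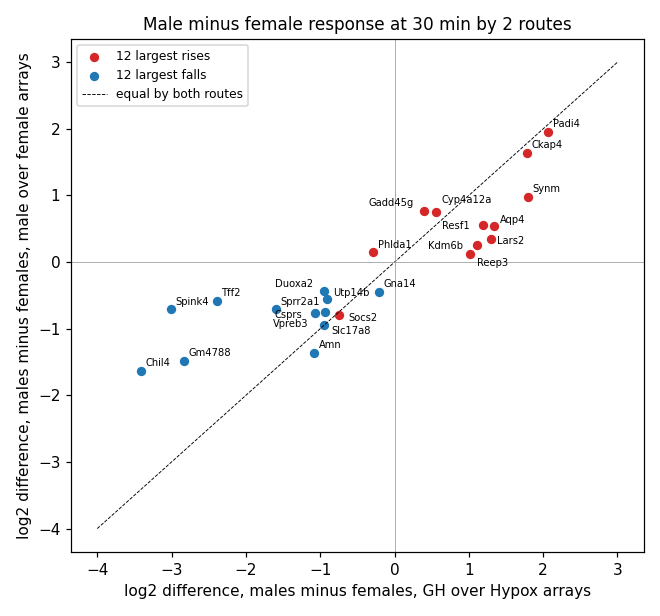
Log2 difference of the GH response at 30 min, males minus females, for the 12 largest called rises and falls in males, from GH over Hypox arrays (horizontal axis) and from male over female arrays (vertical axis), with a line where both are equal. Padi4 (2.07 and 1.96) and Ckap4 (1.78 and 1.64) lie near the line, whereas Chil4, Spink4 and Tff2 lie far above it.

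Between 90 and 30 min in males, 365 genes were called higher at 90 min (1.39% of those tested) and 280 lower (1.07%). In the Hypox pools the mucosa sum was 8040 and 8500 on the 30 min arrays, against 1460 and 1520 on the 90 min arrays. In the GH pools of replicate 1 the muscle sum was 198000 at 30 min and 32200 at 90 min. The part of these signals in the differences was not tested. Serpina3k, a serine protease inhibitor, was at 1.33 and 3.36 at 90 min, against -0.34 and -0.73 at 30 min (difference 2.88 ± 0.41, adjusted p = 0.0064). Aacs, which makes acetoacetyl-CoA for lipid synthesis, was at 1.99 and 2.37 at 90 min, against -0.44 and -0.53 at 30 min (adjusted p = 2.8e-05). Nrep, a gene of neuronal regeneration, was at 3.03 and 2.92 at 90 min, against 0.64 and 0.01 at 30 min (adjusted p = 0.0038). These 3 genes were picked as the largest called differences upward with a symbol, so the separation of their arrays follows from that choice. Sybu (1.89), Slc22a26 (1.75), the crosslinking enzyme gene Tgm1 (1.64), Abhd17b (1.60) and Zswim1 (1.48) completed the 8 largest differences upward.

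Lower at 90 than at 30 min were Lars2 (difference -2.62), Synm (-1.60), Kdm6b (-1.43), Vil1 (-1.41) and Aqp4 (-1.15), all called higher at 30 min. Of genes not called at 30 min, Lrtm1 (-2.60), Depp1 (-2.46), the transcriptional repressor gene Snai2 (-1.80) and Cth, which makes cysteine (-1.495), were lower at 90 min too. Lrtm1 had 2 nearly equal ratios at 30 min, 0.99 and 0.95, just under 2-fold, whereas Cth went opposite ways at -0.43 and 1.46. Socs2 was at 2.22 at 30 min, 3.33 at 90 min and 3.22 after 2 injections, and Cish at 2.19, 4.17 and 3.11. Neither difference between 90 and 30 min was called (adjusted p = 0.32 for Socs2 and 0.31 for Cish). In the same 3 comparisons Phlda1 was at 3.02, 4.15 and 2.55, Gadd45g at 2.47, 2.45 and 1.78, and Socs3 at 1.54, 0.79 and 0.18. Myc was at 0.80, 2.62 and 1.56 and Socs1 at 0.92, 2.20 and 0.47, both called at 90 min alone of the 3 comparisons.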

How the data were processed

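RNA of mouse liver pools was amplified, labelled with 1 of 2 dyes and hybridised to 2-colour Agilent arrays, per the labels' protocols. Per the file headers, each scanner file gives the mean signal intensity and background intensity of each spot and a log10 ratio of processed signals. The authors' deposited value table holds log2 ratios, whose columns for both arrays here equal the scanner ratio of the other replicate; the scanner files were followed here, so the mice per pool given for each array depend on it.

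Signals of 45018 spots were corrected with limma 3.58.1 (R 4.3.3; normexp, offset 50) and loess within arrays, without 1639 control spots; each array had 72.5% to 74.4% of spots well above background in a channel. Of 41174 probes, 22072 matched a RefSeq symbol by accession. The brightest probe of each of 33767 names was kept, and 26207 genes were tested, each flagged well above background, in green or red, on both arrays of some comparison. 1 model of 22 arrays held 11 comparison terms and a dye term (10 residual degrees of freedom, prior 2.50), with Benjamini-Hochberg adjustment over all genes tested. A call in a single comparison needs an adjusted p under 0.05 and both arrays the same way. Differences between comparisons (males minus females, 90 minus 30 min) were called by an adjusted p under 0.05 alone. Recurring pools were treated as independent, and the number of arrays limits the precision. Slide, replicate and dye coincide within the comparison and cannot be told apart.

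Named genes are the 12 largest called rises and falls, up to 20 each way at least 2-fold on both arrays, up to 4 called members per list, 8 each way for the differences, and the members of the GH pathway. The members and lists were chosen with earlier results of these data known. Alternatives are given at the end.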

Additional observations from a re-analysis of the deposited data

Results flagged for a closer look

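The response to GH at 30 min differed between the sexes by test for 1 gene, Tmpo (log2 difference -0.89, males minus females).

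Between 90 and 30 min in males the test called a difference, 90 minus 30 min, for 21 genes named in the text. Higher at 90 min were Serpina3k (2.88), Aacs (2.67), Nrep (2.65), Sybu (1.89), Slc22a26 (1.75), Tgm1 (1.64), Abhd17b (1.60), Zswim1 (1.48), Igfals (0.87), Lifr (0.77) and Tmpo (0.59). Lower at 90 min were Lars2 (-2.62), Lrtm1 (-2.60), Depp1 (-2.46), Snai2 (-1.80), Synm (-1.60), Cth (-1.495), Kdm6b (-1.43), Vil1 (-1.41), Aqp4 (-1.15) and Phf8 (-0.38). Groups of 2 arrays were too small to look for outlying arrays.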

How the results depend on the processing

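The direction of the 28 genes called at 30 min and recomputed under the alternatives held in all of them; the 30 min ratio of Tmpo was not recomputed. The numbers of calls did not hold. In the fits to the authors' value table the dye term kept the order of the scanner files. It had the wrong sign for columns that hold the other replicate, both arrays of this comparison among them. Numbers of calls from the value table carry this mismatch and do not show an effect of the authors' processing alone. For GH at 30 min in males (467 higher and 189 lower), calls were 11 and 2 with median centring, 66 and 69 from the authors' value table, and 0 and 0 with the 2 arrays alone, a fit that leaves 1 residual degree of freedom. Lower calls were 355 without background correction, 118 without the dye term and 335 in the loop model, and calls were 227 and 39 with a 1.5-fold minimum. Leaving out a replicate gave 9 to 140 higher and 4 to 7 lower. Of the 656 calls, 392 (59.8%) were called the same way in the loop model and 13 (1.98%) with median centring. Without 1 replicate or the other, Phlda1 was at 2.34 to 3.71, Socs2 at 1.98 to 2.46 and Cish at 1.45 to 2.92. Without replicate 1 their adjusted p was 0.17, 0.17 and 0.58, and without replicate 2 it was 0.085, 0.12 and 0.18.

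For males minus females (0 higher, 1 lower), higher calls were 3 without background correction, 2 from the value table, 2 in genes well above background on all arrays, 1 with the mean of all probes, 2 with slide as a block (correlation -0.052) and 180 in the loop model. Lower calls were 0 with median centring, 0 with the 4 arrays alone, 0 without sham arrays, 5 without background correction, 2 from the value table and 278 in the loop model. Leaving out an array gave 0 to 10 higher and 0 to 3 lower. For 90 minus 30 min (365 higher, 280 lower), higher calls were 3 with median centring, 559 without background correction, 235 without the dye term, 0 with the 4 arrays alone and 218 with a 1.5-fold minimum. Lower calls were 5 with median centring, 108 from the value table and 0 with the 4 arrays alone. Leaving out an array gave 20 to 202 higher and 5 to 249 lower.

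Genes at least 2-fold on both arrays numbered 42 and 23; at 1.5-fold they were 296 and 76, and with the authors' ratios 269 and 110. The muscle medians of 2.91 and -0.04 were -0.26 and 3.54 in the value table, which holds the replicates in the opposite order. With the replicate block, males minus females had 4 higher calls and 1 lower, and GH at 30 min had 470 and 190; it changed no other count by over 1.5 times. Residuals of replicate 1 correlated between males and females at 30 min at -0.12, and between males at 30 and 90 min at 0.31. The labels do not say what a number marks; per the file headers the male arrays at 30 and 90 min share a slide by number, and those of males and females do not. For 90 minus 30 min the block gave 401 higher and 337 lower. With the replicate numbers of the 30 min arrays exchanged, chosen after seeing the data, calls were 347 higher and 121 lower at 30 min. The cause of these changes was not tested.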
